A study of Mus musculus with 28 samples.

Results

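Adding Gfi1 to Atoh1 was examined as a difference of Dox effects: the log2 change with doxycycline (Dox) in iG+A embryoid bodies (EBs), less the same change in iAtoh1 EBs. The comparison uses 8 of the 28 RNA-seq libraries of the series, those of these lines with and without Dox, with 2 replicates per group. It asks which responses to Atoh1 are weaker, stronger or new when Gfi1 is expressed with it. Both lines were made in A2loxCre mouse embryonic stem cells. Each holds 1 Dox-inducible cassette that ends in the fluorescent protein mVenus, with Flag-tagged Atoh1 alone in iAtoh1, and Gfi1 followed by Flag-tagged Atoh1 in iG+A, all separated by 2A peptides. EBs were given 2 µg/ml of Dox from day 4 to day 6 (48 h), after which mVenus+ cells were sorted. No Dox libraries are whole, unsorted EBs of the same line at day 6. Replicates are separate clones per the series record, and p-values rest on the spread between the 2 replicates of a group, pooled and moderated over all 28 libraries. With the 8 libraries fitted alone the counts of genes called below fell to 469 higher and 249 lower. Because No Dox libraries are bulk EBs and Dox libraries are sorted cells, fewer cells of a type and less RNA per cell cannot be told apart.

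Atoh1 is a proneural basic helix-loop-helix activator that binds E-boxes and is needed for inner ear hair cells (HCs), cerebellar granule neurons and other cell types. It switches on Notch ligands and a cascade of downstream neuronal factors. Gfi1 is a zinc finger protein with an N-terminal SNAG domain, which recruits histone demethylases and deacetylases. It is known as a repressor in blood cells and is needed for HC survival.

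Levels are normalized counts. Differences are on the scale of log2(normalized count + 1), which understates changes of genes with few counts, and they carry no correction for gene length. Of 19421 genes, 16837 reached 10 normalized counts in 2 or more libraries and were tested with limma. The threshold was an adjusted p below 0.05 together with a change of 1.5 or more, up or down, on the log2 scale. Estimated depth was 30.3 to 48.0 M reads in the 8 libraries, and 17756 to 18061 genes were above 0 in each. The median standard error (SE) was 0.184 for a Dox effect and 0.261 for the difference.

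The transgenes were examined first. Gfi1 (chromosome 5, 108145674 to 108155056, NCBIM37) had 55.2 and 68.6 normalized counts without Dox and 92.0 and 49.7 with it in iAtoh1, against 102 and 119 and then 9936 and 10353 in iG+A. The difference of Dox effects was 6.38 (SE 0.35, limma adjusted p = 5.09e-09), and the Dox libraries of iG+A stood apart from all the others. Atoh1 (chromosome 6, 64679140 to 64681227) reached 18996 and 21242 in iAtoh1 and 14276 and 16667 in iG+A, from 39.2 to 120 in the untreated libraries of both lines. The Dox groups did not overlap, but the difference of −1.24 was not past the threshold (SE 0.47, limma adjusted p = 0.0821), and without iAtoh1 No Dox replicate 1 it was (−1.71, limma adjusted p = 0.0266). Pou4f3, which neither cassette holds, rose in both lines, to 101 and 62.6 in iAtoh1 and 42.4 and 50 in iG+A, from 13.1 to 20.5 and from 2.25 to 8.13. Its difference was 0.90 (SE 0.66, limma adjusted p = 0.398). The counts do not separate transgene from endogenous transcripts.

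The difference was past the threshold upward for 747 genes (4.44% of those tested) and downward for 410 (2.44%), together 1157 genes (6.87%), and 4871 genes had an unadjusted p under 0.05. In iAtoh1 cells 486 genes rose with Dox (2.89%) and 424 fell (2.52%), and in iG+A cells 1238 rose (7.35%) and 833 fell (4.95%). Of the 486 rises, 47 were strengthened and 85 weakened, and for 354 the difference was not past the threshold. Of those 354, 241 also rose past the threshold in iG+A and 113 did not. Of the 424 falls, 9 were strengthened and 63 weakened, and for 352 the difference was not past the threshold. Of those 352, 176 also fell past the threshold in iG+A and 176 did not. A difference that misses the threshold does not show that the response was the same in both lines. The largest class was of added responses: 519 genes rose and 218 fell past the threshold in iG+A and not in iAtoh1, with a difference past it as well. In the remaining 118 higher and 98 lower genes the difference alone was past the threshold. These classes were read from the same iAtoh1 libraries that enter the difference, and such a choice favours weakened over strengthened responses. The plot of Dox effects shows each class by its position.

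**Figure D1:**
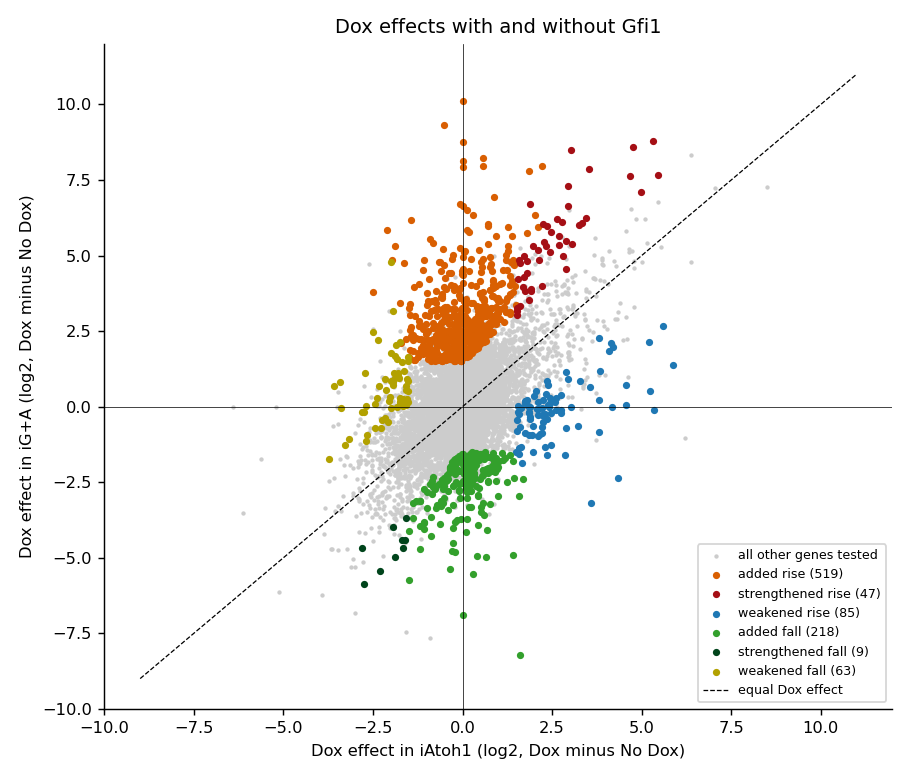
Dox effect in iAtoh1 (x axis) against Dox effect in iG+A (y axis), both log2, for every gene tested; colours mark the 6 classes of genes past the threshold in the difference, with their numbers, and the dashed line marks equal effects. Added rises (519) lie above the line near 0 on the x axis, and most weakened rises (85) lie near 0 on the y axis.

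The weakened rises had a median Dox effect of 2.31 in iAtoh1 and −0.11 in iG+A. In iG+A, 72 of the 85 were not past the threshold, 6 still rose and 7 fell. Gfra3 (chromosome 18, 34849557 to 34880041), the artemin co-receptor of sensory and sympathetic neurons, rose from 88.0 and 50.6 normalized counts to 3999 and 3919 in iAtoh1. In iG+A it had 55.7 and 90.7 without Dox and 140 and 248 with it. Both iG+A Dox libraries lay above the untreated ones of that line and far below those of iAtoh1 with Dox, and the difference was −4.49 (SE 0.57, limma adjusted p = 4.02e-05).

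Clvs1 (chromosome 4, 9196440 to 9378838) encodes clavesin 1, a lipid-binding protein of neuronal endosomes and lysosomes. It had 13.5 and 18.8 normalized counts without Dox and 260 and 218 with it in iAtoh1, against 8.91 and 18.9 and then 9.81 and 4.69 in iG+A. The iG+A groups overlapped and the difference was −4.66 (SE 0.85, limma adjusted p = 0.000976). Frrs1l, an AMPA receptor assembly factor, went from 3.91 and 4.08 to 146 and 91.7 in iAtoh1 and from 5.80 and 12.3 to 10.6 and 7.32 in iG+A (difference −4.50, SE 0.80, limma adjusted p = 0.000787). Ccdc141 (chromosome 2, 76847960 to 77008693), a protein of migrating neurons, rose in iAtoh1 from 228 and 231 to 1496 and 1887. In iG+A it fell, from 445 and 626 to 256 and 118, so that its response was turned round (difference −4.46, SE 0.51, limma adjusted p = 1.34e-05).

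Hs3st2, a heparan sulfate sulfotransferase of the brain, had the largest lower difference of the genes named by the rule (−6.71, SE 1.62, limma adjusted p = 0.00862). Its replicates were wide, at 53.1 and 191 in iAtoh1 with Dox and 7.57 and 3.90 in iG+A with Dox. These Dox levels lie less far apart than the difference, which also holds a gap between the untreated levels of the lines. Lrtm2, a leucine-rich repeat protein, had 166 and 49.2 in iAtoh1 with Dox and 7.54 and 4.94 in iG+A (−4.72, SE 1.33, limma adjusted p = 0.0215). Without iAtoh1 Dox replicate 1, iAtoh1 No Dox replicate 2, iG+A Dox replicate 2 or iG+A No Dox replicate 2 the Lrtm2 difference was −3.85, −3.43, −4.46 and −4.58, with a limma adjusted p of 0.104, 0.107, 0.0648 and 0.053.

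The 47 strengthened rises had median Dox effects of 2.33 in iAtoh1 and 5.32 in iG+A. Insm1 (chromosome 2, 146047657 to 146050752), a SNAG zinc finger protein of newborn neurons, endocrine cells and outer HCs, had 26.4 and 12.2 normalized counts without Dox and 279 and 171 with it in iAtoh1. In iG+A it went from 3.48 and 14.6 to 2233 and 1689. Both iG+A Dox libraries lay above both of iAtoh1, and the difference was 4.33 (SE 0.69, limma adjusted p = 0.00031). Rbp3 (chromosome 14, 34767208 to 34777402), the retinoid carrier secreted by photoreceptors, reached 32.9 and 24.6 in iAtoh1 and 2347 and 2445 in iG+A, from 1.63 to 5.80 in the untreated libraries (5.45, SE 0.80, limma adjusted p = 0.000148). Miat, a long non-coding RNA of neurons and retina, reached 743 and 218 in iAtoh1 and 1779 and 2180 in iG+A. Its untreated levels also differed, at 80.1 and 32.6 in iAtoh1 and 4.64 and 26.9 in iG+A, past the threshold (−2.06), and its difference of 4.35 (SE 0.85, limma adjusted p = 0.00178) holds that gap.

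The other largest strengthened rises were A930003A15Rik (4.82, SE 0.73, limma adjusted p = 0.000202) and Btbd17, a BTB domain protein, which reached 512 and 487 in iAtoh1 and 2576 and 3528 in iG+A (3.84, SE 1.12, limma adjusted p = 0.0264). The Btbd17 call was lost without either iAtoh1 Dox replicate (3.87 and 3.80), iAtoh1 No Dox replicate 1 (2.97), iG+A Dox replicate 2 (3.61) or iG+A No Dox replicate 1 (2.62), with limma adjusted p of 0.0638, 0.0642, 0.126, 0.0769 and 0.151.

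The 519 added rises had a median Dox effect of −0.04 in iAtoh1 and 2.70 in iG+A. Sst (chromosome 16, 23889667 to 23890930) encodes somatostatin, a peptide hormone of neurons and endocrine cells. It stood at 1.16 to 11.7 normalized counts in the 6 other libraries, iAtoh1 with Dox included, and at 1826 and 2079 in iG+A with Dox (difference 9.83, SE 1.04, limma adjusted p = 7.07e-06). Dbx1 (chromosome 7, 56886869 to 56892219), a homeobox factor of spinal interneuron progenitors, had 20.1 and 2.84 in iAtoh1 with Dox and 892 and 764 in iG+A (7.41, SE 1.31, limma adjusted p = 0.000788). Among the 8 libraries compared both genes were high in sorted iG+A cells and low in the others. In sorted iGPA cells, whose cassette holds Gfi1, Pou4f3 and Atoh1, Sst had 4774 and 4950 and Dbx1 335 and 455.

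Acvr1c (chromosome 2, 58119864 to 58210306), a type I receptor for activin and Nodal, had 7.47 and 7.30 in iAtoh1 with Dox and 1369 and 527 in iG+A (7.64, SE 1.10, limma adjusted p = 0.000127). Slitrk6 (chromosome 14, 111147800 to 111154371), a leucine-rich repeat protein needed for innervation of the inner ear, had 1.83 and 0 against 1910 and 755 (7.61, SE 1.05, limma adjusted p = 8.02e-05). Gpr142, a G protein-coupled receptor of pancreatic islets, had 6.40 and 7.57 against 208 and 287 (6.78, SE 0.92, limma adjusted p = 7.05e-05). Its Dox levels lie less far apart than that value, which also holds a gap between the untreated levels of the lines. The iG+A replicates of Acvr1c and Slitrk6 lay far apart, and in all of these genes they stood above those of iAtoh1. The rule for naming genes required the Dox effects of both iG+A replicates to lie beyond those of both iAtoh1 replicates. Sox1, a factor of neural progenitors, had 15.5 and 6.63 against 1158 and 569 (7.97, SE 1.54, limma adjusted p = 0.00165), but its untreated libraries ran from 2.32 to 124.

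Shox2 (chromosome 3, 66775649 to 66785693), a homeobox gene of limb, heart and neurons, had 34.4 and 37.0 in iAtoh1 with Dox and 858 and 770 in iG+A, from 10.8 to 15.1 without (4.68, SE 0.50, limma adjusted p = 7.85e-06).

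A further 5 genes among the 12 largest higher differences were listed at 0 in both untreated groups and in iAtoh1 with Dox, so no fold is given for them. Scx (chromosome 15, 76287868 to 76289898), the helix-loop-helix factor of tendons, had 465 and 393 normalized counts in iG+A with Dox. Flrt1 and Lrrc4, leucine-rich repeat adhesion proteins of neurons, had 252 and 232 and then 77.7 and 123. Gper1, a membrane oestrogen receptor, had 187 and 415, and Pcdhgb2 had 1095 and 1137. Pcdhgb2 shares its last exons with the other gamma protocadherins, so its level is uncertain.

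The 218 added falls had a median Dox effect of 0.15 in iAtoh1 and −2.32 in iG+A. Nxf7 (chromosome X, 132114094 to 132133316), of the nuclear RNA export factor family, had 721 and 1249 normalized counts in iAtoh1 with Dox and 989 and 1169 in untreated iG+A, but 31.4 and 20.2 in iG+A with Dox (difference −5.01, SE 0.48, limma adjusted p = 2.84e-06). Kctd12b (chromosome X, 150119697 to 150130934), of the family of GABA-B receptor auxiliary subunits, had 335 and 378 in iAtoh1 with Dox and 21.3 and 26.8 in iG+A (−4.26, SE 0.34, limma adjusted p = 4.72e-07). Untreated levels of both genes overlapped or nearly did so between the lines. Gap43 (chromosome 16, 42248555 to 42340764), a growth cone protein of neurons, was 433 and 496 in iAtoh1 with Dox, much as without (382 and 484), and fell in iG+A from 1045 and 683 to 49.0 and 45.1 (−4.25, SE 0.52, limma adjusted p = 2.67e-05).

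Csf2rb, the common subunit of the GM-CSF, IL-3 and IL-5 receptors, and its close copy Csf2rb2 fell in iG+A, Csf2rb from 3406 and 2275 to 142 and 68.9. In iAtoh1 with Dox, Csf2rb had 619 and 955. The differences were −4.60 (SE 0.77, limma adjusted p = 0.000496) and −5.82 (SE 0.86, limma adjusted p = 0.000173), and how reads were split between the copies is uncertain. Islr, a secreted protein of mesenchymal cells, had 148 and 199 in iAtoh1 with Dox and 15.5 and 8.88 in iG+A (−5.62, SE 0.61, limma adjusted p = 8.92e-06). Untreated levels of Islr differed too, at 422 and 373 in iG+A against 73.0 and 161 in iAtoh1, past the threshold (1.86), and those of Csf2rb were 881 and 892 in iAtoh1 (1.65, not past it).

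Among the falls in iAtoh1, the 63 weakened ones had medians of −1.94 in iAtoh1 and 0.51 in iG+A, and 11 of them rose in iG+A. Clec1b (chromosome 6, 129347315 to 129359353), the platelet receptor CLEC-2, fell in iAtoh1 from 51.8 and 27.7 to 9.14 and 12.3 normalized counts and rose in iG+A from 157 and 108 to 537 and 602 (difference 3.87, SE 0.87, limma adjusted p = 0.00555). Clec9a, a dendritic cell receptor whose gene overlaps that of Clec1b, had a difference of 4.97 (SE 1.09, limma adjusted p = 0.00435), and reads from the overlap may belong to either. Vwf, von Willebrand factor of endothelium and platelets, had 46.4 and 135 in iAtoh1 with Dox and 1359 and 1844 in iG+A (3.78, SE 0.58, limma adjusted p = 0.00023).

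Cldn3 (chromosome 5, 135462084 to 135463342), a tight junction claudin, fell from 179 and 114 to 30.9 and 42.7 in iAtoh1 and rose from 26.7 and 60.7 to 393 and 341 in iG+A (5.10, SE 0.82, limma adjusted p = 0.000324). Stk32a, a serine/threonine kinase, had the largest difference of those named in this class (6.81, SE 0.91, limma adjusted p = 6.51e-05), with 41.2 and 15.1 in iAtoh1 with Dox and 1144 and 403 in iG+A. Those Dox levels lie less far apart than the difference, which also holds a gap between the untreated levels of the lines. All 5 of these genes fell in iAtoh1 and rose in iG+A.

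The 9 strengthened falls had medians of −1.90 in iAtoh1 and −4.66 in iG+A. With the replicate number as a block there were 23, and without iAtoh1 Dox replicate 2 or iG+A Dox replicate 1 there were 4 and 23. Plac1 (chromosome X, 50423172 to 50593288), a gene of the placenta, fell to 126 and 216 in iAtoh1 and to 9.48 and 25.4 in iG+A, from 874 to 1450 without Dox (−3.11, SE 0.56, limma adjusted p = 0.000866). Col1a2 (chromosome 6, 4454814 to 4491543), a chain of type I collagen, fell to 2134 and 2838 and to 1569 and 537. The Dox groups of Col1a2 lay close, and its difference of −2.82 (SE 0.59, limma adjusted p = 0.00319) held an untreated level of 22340 and 17246 in iG+A against 6189 and 8940 in iAtoh1. Anxa1, annexin A1, had 30.0 and 20.7 against 8.46 and 6.06 with Dox (−2.73, SE 0.55, limma adjusted p = 0.00216).

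**Figure D2:**
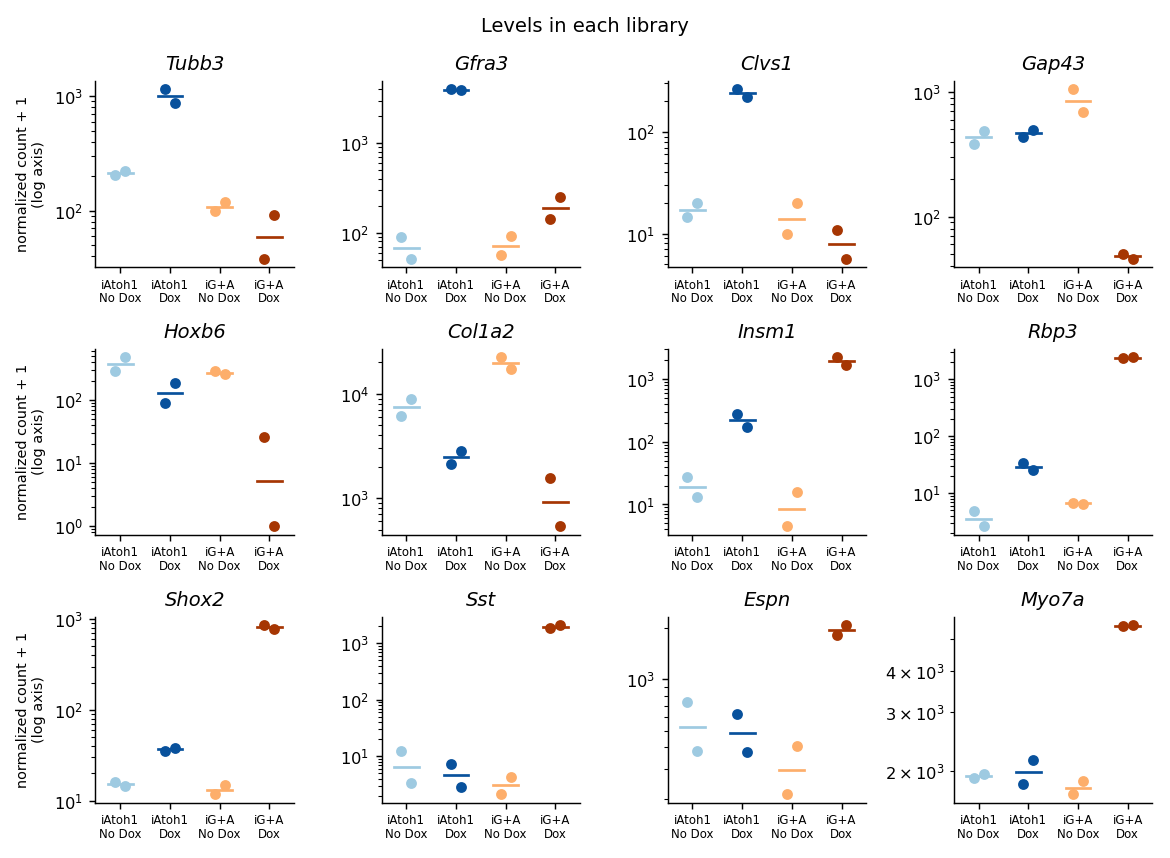
Normalized count + 1 (log axis) in each of the 8 libraries for 12 genes; points are libraries and bars the mean of the log values of the 2 replicates in a group. Gfra3 and Clvs1 rise in iAtoh1 with Dox and stay lower in iG+A with Dox, whereas Sst, Rbp3, Shox2 and Espn are highest in iG+A with Dox.

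The plot of levels by library sets these patterns side by side. Gene lists were then read for the whole comparison, each by its counts and median, beside 4.44% higher, 2.44% lower and a median difference of 0.01 over all genes tested.

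For proneural factors and their followers most differences were not past the threshold. Of 22 tested, 10 rose in iAtoh1 and 10 in iG+A, 2 had a higher difference (Insm1 and Olig3) and 3 a lower one, Ebf2 and Lhx2 among them, and the median was −0.11. Between sorted cells of the lines the median was −0.46 (4 higher and 5 lower). For Gfi1 added with Pou4f3 present (iGPA minus iP+A) it was −1.08 (1 higher and 6 lower). Olig3, a factor of dorsal spinal and hindbrain progenitors, had 4.56 and 2.84 normalized counts in iAtoh1 and 147 and 182 in iG+A with Dox (difference 4.71, SE 1.07, limma adjusted p = 0.0057). It thus differed between the sorted cells by more than its replicates did. Barhl2, a homeobox gene downstream of Atoh1, had 97.8 and 36.9 in iAtoh1 with Dox and 0 and 12.2 in iG+A, and its difference was not past the threshold (−2.48, SE 1.53, limma adjusted p = 0.304). Neurod4 was under the level needed for a test, at 6.40 and 8.51 in iAtoh1 with Dox and 3.19 and 1.22 in iG+A.

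In the Notch pathway 11 of 24 genes rose in iAtoh1 and 14 in iG+A. The difference was higher for 4 and lower for 0, with a median of 0.32. Jag2, a Notch ligand that HCs express, rose to 2143 and 1631 normalized counts in iAtoh1 and to 4774 and 5484 in iG+A, from 408 to 572 without Dox (1.67, SE 0.32, limma adjusted p = 0.00147). Without iAtoh1 Dox replicate 2 the Jag2 difference was 1.47, under the threshold of size. Hey1 and Nrarp, targets of Notch signalling, had 1607 and 958 against 3152 and 3087, and 631 and 463 against 1832 and 3280 with Dox. Their differences were 2.14 (SE 0.43, limma adjusted p = 0.00206) and 2.19 (SE 0.38, limma adjusted p = 0.000626). The receptor Notch4 was the other gene past the threshold (1.92, SE 0.62, limma adjusted p = 0.042), a call lost without any 1 library other than iAtoh1 No Dox replicate 2 and iG+A Dox replicate 1 (1.46 to 2.13).

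Most general neuronal genes had no difference past the threshold, and those that did went in both directions. Of 38 tested, 6 rose in iAtoh1 and 12 in iG+A, the difference was higher for 2 (Mapt and Syt1) and lower for 2 (Gap43 and Tubb3), and the median was 0.31. Between sorted cells of the lines the median was −0.16 (3 higher and 5 lower), and for Gfi1 added with Pou4f3 present (iGPA minus iP+A) it was −0.24 (1 higher and 6 lower), so its sign depended on the comparison. Tubb3 (chromosome 8, 125935324 to 125945915), the neuronal tubulin, rose in iAtoh1 from 205 and 223 to 1142 and 870 normalized counts, and in iG+A went from 98.6 and 117 to 37.2 and 91.5. Its difference was −3.08 (SE 0.51, limma adjusted p = 0.000429). Mapt, the microtubule protein tau, had 214 and 171 in iAtoh1 with Dox and 777 and 869 in iG+A (2.28, SE 0.30, limma adjusted p = 5.74e-05). Dcx, doublecortin of migrating neurons, rose in both lines, to 86.9 and 56.7 and to 54.3 and 24.4, with a difference of 0.22 (SE 0.63, limma adjusted p = 0.86). Otx1, a head patterning factor, had 255 and 414 against 19.1 and 31.7 with Dox. Its difference of −2.16 (SE 1.14, limma adjusted p = 0.222) passed the threshold with the replicate number as a block (limma adjusted p = 0.0349).

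Among sensory neuron genes the difference was higher for 6 of 26 (Eya2, Isl1, Pou4f1, Prrxl1 and Ret among them) and lower for 1, with a median of 0.92. Eya2, a transcriptional coactivator of cranial placodes, had 247 and 138 in iAtoh1 and 1509 and 1360 in iG+A with Dox (3.34, SE 0.53, limma adjusted p = 0.000292). Ret, the receptor of GDNF family ligands, fell in iAtoh1 from 453 and 483 to 145 and 120 and was 556 and 738 in iG+A with Dox (2.84, SE 0.44, limma adjusted p = 0.000274).

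Transcription factors of HCs and the otic placode had 6 higher differences of 27 (Hmx3, Insm1, Isl1, Lhx3 and Pax8 among them) and 0 lower, and a median of 0.27. Of these, Insm1 and Isl1 stand in lists above as well. Pax8, an early otic factor, was at 0.915 and 0 in iAtoh1 with Dox and 40.4 and 81.7 in iG+A (7.19, SE 1.25, limma adjusted p = 0.000671). Part of that value is a gap between the untreated levels of the lines, since the Dox levels lie less far apart. Lhx3 (chromosome 2, 26055732 to 26063769), a LIM homeobox gene of HCs and motor neurons, had 9.14 and 1.35 in iAtoh1 and 76.0 and 143 in iG+A with Dox, from 0 to 4.81 without. Its difference of 3.32 (SE 1.09, limma adjusted p = 0.0466) was lost with the block (limma adjusted p = 0.0623), as was that of Hmx3, an inner ear homeobox gene (2.94, SE 0.96, limma adjusted p = 0.0449, and 0.0528 with the block). The Lhx3 call was also lost without iAtoh1 Dox replicate 2, iAtoh1 No Dox replicate 2, iG+A Dox replicate 2 or iG+A No Dox replicate 1 (2.27 to 2.87). That of Hmx3 was lost without any 1 library other than iAtoh1 No Dox replicate 2 and iG+A Dox replicate 2 (1.79 to 3.23).

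Of 50 hair bundle and synapse genes tested, 13 rose and 1 fell in iG+A (median Dox effect 0.14), and 0 rose and 0 fell in iAtoh1 (median −0.05). The difference was higher for 6 (Atp2b2, Espn, Myo7a, Pcdh15, Tmie and Ush1c) and lower for 0, with a median of 0.27. Espn (chromosome 4, 151494440 to 151526480) encodes espin, which bundles the actin of stereocilia. It had 622 and 376 normalized counts in iAtoh1 with Dox and 1816 and 2067 in iG+A, from 212 to 737 without (2.84, SE 0.50, limma adjusted p = 0.000728). Myo7a (chromosome 7, 105199570 to 105268034), the stereocilia motor myosin VIIa, had 1814 and 2149 against 5459 and 5504, from 1696 to 1946 without (1.59, SE 0.18, limma adjusted p = 1.17e-05). Both genes were expressed before Dox, and their iG+A Dox libraries lay above all the others. Without iAtoh1 Dox replicate 1 the Myo7a difference was 1.47 (limma adjusted p = 0.00012), under the threshold of size.

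Pcdh15, protocadherin 15 of the tip link, had 76.7 and 152 in iAtoh1 and 1304 and 830 in iG+A with Dox, and 55.8 to 92.9 without (3.22, SE 0.50, limma adjusted p = 0.000275). Tmie (chromosome 9, 110768215 to 110782617), a subunit of the mechanotransduction complex, had 9.14 and 7.57 against 154 and 105, from 3.36 to 15.6 (5.22, SE 0.62, limma adjusted p = 2.16e-05). Atp2b2, the calcium pump of stereocilia, had 59.7 and 62.8 against 452 and 258 (2.66, SE 0.50, limma adjusted p = 0.00128). In these genes too the Dox groups of the lines did not overlap. Other HC genes were not past the threshold: Otof, otoferlin of the synapse, stood at 8.23 and 3.78 against 17.0 and 9.76 with Dox (0.74, SE 0.68, limma adjusted p = 0.52). Myo6, which encodes another myosin of HCs, had 4469 and 4494 against 5764 and 3970 (0.09, SE 0.28, limma adjusted p = 0.866). Cdh23 had a difference of −0.71 (SE 0.82, limma adjusted p = 0.624), with untreated iG+A replicates of 68416 and 27999.

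Hox genes pattern the body axis by position within 4 clusters. Of 34 tested, 10 had a lower difference and 1 (Hoxd1) a higher one, and the median was −0.71. In iAtoh1 1 rose and 0 fell, whereas in iG+A 4 rose and 11 fell. The lower differences stood mostly in the HoxC cluster on chromosome 15, with 6 of 8 members (Hoxc4, Hoxc5, Hoxc6, Hoxc8, Hoxc9 and Hoxc13, cluster median −3.07). In HoxA 3 of 9 were lower, in HoxB 1 of 9 and in HoxD 0 of 8. Hoxc6 had 667 and 452 normalized counts in iAtoh1 with Dox and 57.6 and 64.3 in iG+A, from 263 to 371 without (−3.40, SE 0.38, limma adjusted p = 1.17e-05). Hoxc8 had 549 and 357 against 20.2 and 45.1 (−3.65, SE 0.57, limma adjusted p = 0.000285), and Hoxc4 723 and 594 against 133 and 77.4 (−3.20, SE 0.40, limma adjusted p = 3.18e-05). Some transcripts of neighbouring HoxC genes share exons, so how reads were split between them is uncertain.

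Hoxb6 was the 1 lower gene of HoxB (−4.23, SE 1.22, limma adjusted p = 0.0237), with 25.5 and 0 in iG+A with Dox. Without iAtoh1 Dox replicate 2, iAtoh1 No Dox replicate 1 or iG+A No Dox replicate 1 the Hoxb6 adjusted p in limma was 0.0894, 0.0827 and 0.0667 (−3.70, −3.86 and −4.17). In HoxA, the Hoxa11 call (−2.73, limma adjusted p = 0.0452) was lost without iAtoh1 Dox replicate 1, iAtoh1 No Dox replicate 2, iG+A Dox replicate 1 or iG+A No Dox replicate 2 (−1.89 to −2.32). Hoxd1 had 395 and 603 against 1029 and 1018 with Dox (2.03, SE 0.36, limma adjusted p = 0.000796). Between sorted cells 0 Hox genes were higher and 13 lower past the threshold, so Hoxd1 was not past it there.

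**Figure D3:**
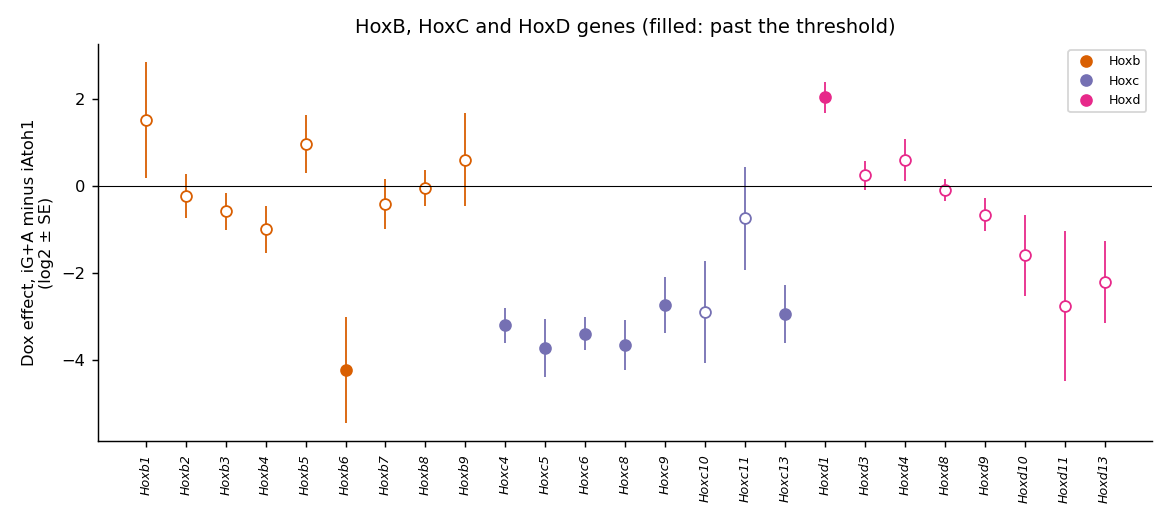
Difference of Dox effects, iG+A minus iAtoh1 (log2, y axis), for the 25 genes tested in the HoxB, HoxC and HoxD clusters, in cluster order (x axis); points are estimates, bars ± 1 SE, and filled points are past the threshold. Of the HoxC genes 6 of 8 are filled and below 0, while HoxD holds the 1 filled point above 0.

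Markers of other cells that an EB can hold were read in the same way. Fibroblast genes had 0 higher and 4 lower of 17 (Col1a2, Col5a1, Col6a1 and Col6a2), with a median of −1.14. Their summed level was 166206 and 244047 normalized counts in untreated iAtoh1 and 400113 and 315171 in untreated iG+A, against 97170 and 119620 and 133257 and 158577 with Dox, so the sums lay further apart before Dox. The median over members was 0.77 between untreated EBs and −0.79 between sorted cells. Blood genes had 4 higher of 20 (Gata1, Ikzf1, Lmo2 and Myb) and 0 lower, with sums of 224197 and 200923 in untreated iAtoh1 and 529838 and 413864 in untreated iG+A, against 28918 and 25025 and 66572 and 87326 with Dox, so iG+A had the higher sums before Dox as well. Lmo2, a cofactor of early blood and endothelium, had 1174 and 1209 against 8024 and 17719 with Dox (3.03, SE 0.40, limma adjusted p = 6.14e-05). Endothelial genes had 4 higher of 16 (Etv2, Flt1, Sox18 and Sox7) and 0 lower, with sums of 16210 and 24532 in iAtoh1 and 44342 and 53352 in iG+A with Dox. With the 8 libraries fitted alone 1 of these calls was left, Flt1, since the limma adjusted p was 0.0514 for Etv2, 0.109 for Sox18 and 0.132 for Sox7. Etv2, the factor that starts the endothelial lineage, had 289 and 438 against 1464 and 3322 (2.55, SE 0.55, limma adjusted p = 0.00379). No member of these 3 lists was at 0 in both iG+A Dox libraries. The part of other cell types in the differences above was not tested.

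The pluripotency list had 0 higher and 0 lower of 19 (median −0.29), as had cell cycle genes (of 25, −0.01) and genes of dissociation stress (of 16, −0.86). The lines nevertheless differed in pluripotency genes. Between untreated EBs their median was −1.54 (0 higher and 0 lower), and between sorted cells −1.81 (0 higher and 6 lower). The untreated sums were 46174 and 33180 in iAtoh1 and 13662 and 22629 in iG+A. With Pou4f3 present the pluripotency and stress medians were above 0, at 0.55 and 0.11. The stress sums were 140870 and 95639 in iAtoh1 and 58889 and 59544 in iG+A with Dox, the lower in the line with Gfi1. Of 18 known Gfi1 targets in blood, 1 had a lower difference (Csf1) and 0 a higher one, with a median of −0.51. SNAG factors and corepressors had 1 higher (Insm1) and 1 lower (Snai2) of 21, Id and BMP genes 2 higher (Bmp6 and Bmp7) of 22, and head patterning genes 2 higher (Irx5 and Pax7) and 1 lower (Irx1) of 35. Neural progenitor genes had 2 higher (Sox1 and Sox10) and 1 lower (Cdh2) of 16, epithelial genes 1 lower (Krt19) of 16 and muscle genes 1 higher (Myod1) of 14. The epithelial median was −1.17 between untreated EBs (0 higher and 1 lower) and −1.14 between sorted cells (0 higher and 6 lower). Cdh2, N-cadherin, had 6360 and 4452 normalized counts without Dox and 12714 and 11199 with it in iAtoh1, against 5840 and 5675 and then 2105 and 2343 in iG+A (−2.54, SE 0.23, limma adjusted p = 1.79e-06).

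Some of these memberships rested on single libraries. Without iAtoh1 No Dox replicate 1 the difference was −1.17 for Col5a1, −1.46 for Csf1 and 2.26 for Pou4f1. Without iG+A No Dox replicate 1 it was 1.80 for Isl1, 1.27 for Bmp7, 2.09 for Myod1 and 2.17 for Sox10, and without iG+A No Dox replicate 2 it was 2.67 for Prrxl1. Without iG+A Dox replicate 1 it was −2.13 for Ebf2, −1.20 for Irx1, 1.33 for Irx5 and 1.36 for Syt1, and without iG+A Dox replicate 2 it was 1.35 for Gata1, 1.46 for Ikzf1 and 1.58 for Myb. Without iAtoh1 Dox replicate 1 it was 1.42 for Sox18 and 1.13 for Sox7, and without iAtoh1 No Dox replicate 2 it was 1.19 for Ush1c. None of these was then past the threshold, and each is the value nearest 0 among those that lost the call for its gene.

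Counts of whole lists moved too. With the 8 libraries fitted alone there were 4 lower Hox genes, 3 higher and 0 lower sensory neuron genes, 3 higher HC factors, 2 higher and 1 lower proneural factors, 2 lower fibroblast genes, 1 higher and 2 lower general neuronal genes, and 0 of either kind among head patterning, Id and BMP, and muscle genes. Blood and Notch genes again counted 4 higher, not the same genes for Notch since Notch4 was lost, and hair bundle genes 5, while 3 stress genes were lower and 1 pluripotency gene was higher and 1 lower. With the replicate number as a block, 3 stress genes were lower, 1 pluripotency gene was higher and 1 lower, and 1 cell cycle gene was higher. With 1 library left out, the higher endothelial genes were 2 without iAtoh1 Dox replicate 1, iAtoh1 No Dox replicate 2, iG+A Dox replicate 2 or iG+A No Dox replicate 1. The higher blood genes were 1 without iG+A Dox replicate 2 and 2 without iG+A No Dox replicate 2, the higher sensory neuron genes 3 without iAtoh1 No Dox replicate 1, and the higher Notch genes 2 without iAtoh1 Dox replicate 2.

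**Figure D4:**
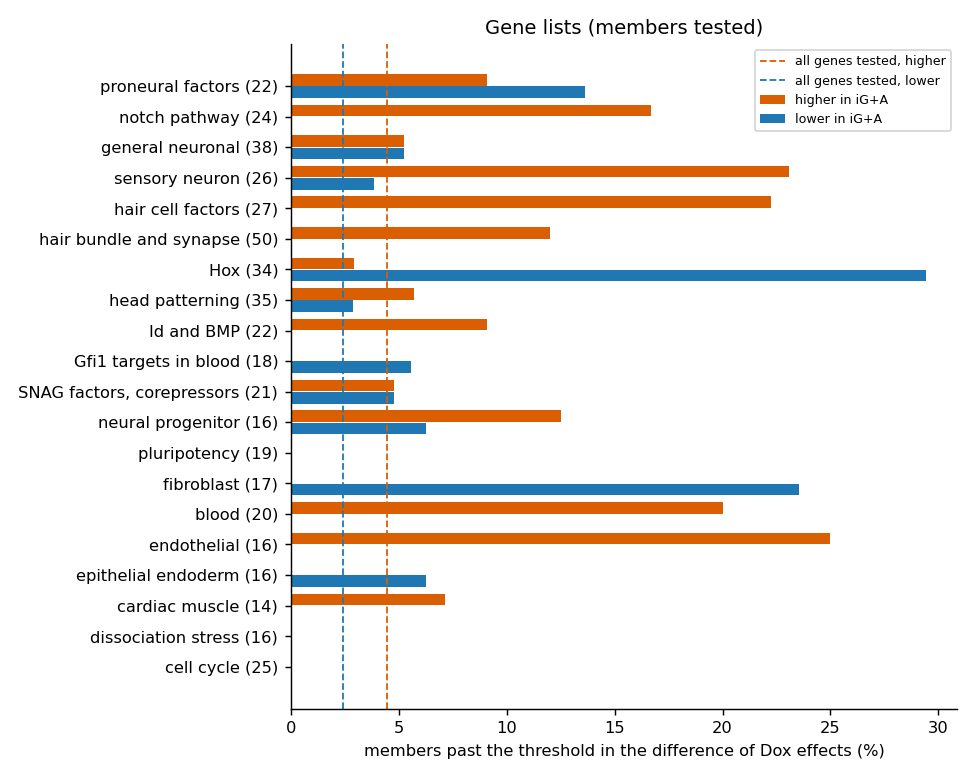
Share of each gene list (members tested in brackets) with a difference of Dox effects past the threshold, higher or lower in iG+A (x axis, %); dashed lines mark the shares over all genes tested, 4.44% and 2.44%. Of the Hox genes 10 of 34 are lower, and of the endothelial genes 4 of 16 are higher, of which Sox18 and Sox7 were not past the threshold without iAtoh1 Dox replicate 1.

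A direct comparison of sorted cells, iG+A Dox against iAtoh1 Dox, uses the same Dox libraries and gave 1095 genes higher (6.5%) and 660 lower (3.92%). In untreated EBs of the lines 87 genes were higher in iG+A (0.517%) and 49 lower (0.291%). For the 747 genes with a higher difference, the median was 2.52, beside medians of 2.25 between sorted cells and −0.25 between untreated EBs. For the 410 with a lower difference these were −2.23, −1.93 and 0.31. For the strengthened falls the medians were −1.71 between sorted cells and 0.48 between untreated EBs, and for the added rises 2.43 and −0.26.

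Gfi1 alone gave the next comparison, in 4 libraries of the iGfi1 line, whose cassette holds Gfi1 without Atoh1, that the difference does not use. In iGfi1 362 genes rose with Dox (2.15%) and 449 fell (2.67%). Of the genes with a higher difference 163 (21.8%) also rose in iGfi1, and of those with a lower difference 122 (29.8%) also fell, whereas 3 and 6 went the opposite way past the threshold. The share with the same sign was 80.6% for the higher genes, against 52.0% of all genes tested with a positive iGfi1 effect, and 83.7% for the lower genes, against 47.9% with a negative one. The effect in iGfi1 was nevertheless within 1 log2 unit of 0 and not past the threshold for 432 of the 747 and 187 of the 410.

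All 9 strengthened falls fell in iGfi1 past the threshold, and 27 of the 47 strengthened rises rose there, with medians of −2.37 and 1.80. Of the added rises 112 of 519 rose in iGfi1 (median 0.79) and of the added falls 91 of 218 fell (median −1.34). Of the weakened rises 6 of 85 fell in iGfi1, with a median of −0.47. Nxf7 and Kctd12b, for instance, fell in iGfi1 by 3.62 and 3.21, and Rbp3 rose by 4.69, while Gfra3, Sst and Insm1 had iGfi1 effects of −0.08, 2.00 and 0.37, none past the threshold.

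The Dox effect in iG+A was also set against the sum of the effects in iAtoh1 and iGfi1. It exceeded the sum past the threshold for 336 genes (2.0%) and fell short of it for 168 (0.998%), and with the block for 498 and 264. Without iG+A No Dox replicate 1 these were 160 and 63, without iAtoh1 Dox replicate 1 they were 223 and 91, and without iG+A No Dox replicate 2 the lower count was 313. Sst (7.83), Acvr1c (8.24), Tmie (5.28), Insm1 (3.96), Eya2 (2.88) and Isl1 (3.08) were above the sum past the threshold, and Gfra3 (−4.41), Tubb3 (−3.99) and Clvs1 (−5.71) below it. Rbp3 (0.76), Nxf7 (−1.39), Plac1 (−0.22), Espn (1.67) and Myo7a (1.24) were not. Of the 34 Hox genes 1 was, Hoxc6 (−2.06).

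The same step, Gfi1 added, can be read in the presence of Pou4f3 from iGPA cells, whose cassette holds Gfi1, Pou4f3 and Atoh1, and iP+A cells, with Pou4f3 and Atoh1, in 8 libraries of which none is shared. There 802 genes had a higher difference (4.76%) and 478 a lower one (2.84%). Of the 747 genes higher in iG+A minus iAtoh1, 695 (93.0%) were also above 0 in iGPA minus iP+A, against 51.4% of all genes tested, and 385 (51.5%) were past the threshold. Of the 410 lower ones, 371 (90.5%) were below 0, against 48.6% of all genes, and 167 (40.7%) past it. Past the threshold in the opposite direction were 5 and 1. Across all 16837 genes the pair of differences had a Pearson correlation of 0.58, a description over genes, which are not independent.

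Among the classes past the threshold in the difference, the share with the same sign with Pou4f3 present ran from 86.7% of the genes with a lower difference alone (85 of 98) and 88.2% of the weakened rises (75 of 85) to every member of both strengthened classes (47 of 47 rises and 9 of 9 falls). The median difference was −2.55 without and −0.95 with Pou4f3 for the weakened rises, 2.73 and 2.11 for the added rises and 2.77 and 2.95 for the strengthened rises. The genes were chosen by the first value of each pair, which enlarges it, so a smaller second value says nothing of Pou4f3. Tubb3 (−4.24), Clvs1 (−3.90), Gap43 (−6.25), Hoxc6 (−3.32), Hoxc8 (−3.92), Rbp3 (5.99), Sst (8.90), Espn (2.42), Pcdh15 (5.24) and Tmie (4.43) were past the threshold there too. Gfra3 (−0.78), Insm1 (0.76), Lrtm2 (−0.82), Ret (0.08) and Pax8 (−0.34) were not. Of the 34 Hox genes, 10 were lower and 1 higher with Pou4f3 present, with a median of −1.54.

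**Figure D5:**
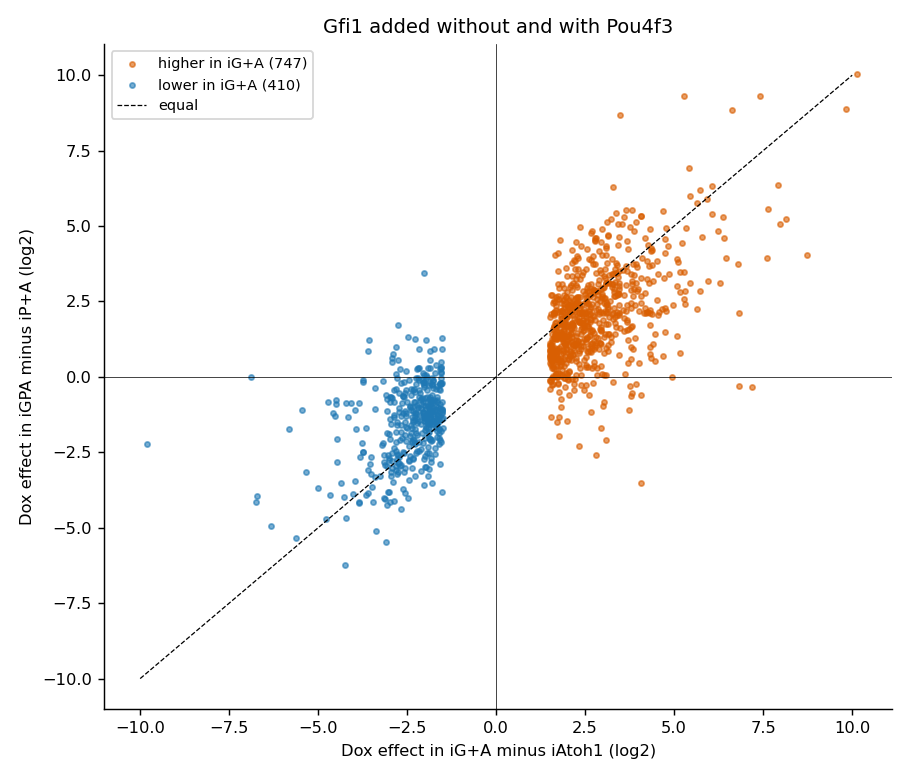
Difference of Dox effects in iG+A minus iAtoh1 (x axis) against iGPA minus iP+A (y axis), both log2, for the 1157 genes past the threshold on the x axis; points are genes and the dashed line marks equal values. Of the 747 higher genes 695 lie above 0 on the y axis, and of the 410 lower ones 371 lie below it.

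Upstream sequence was read for the motifs of both factors, in the 300 bases before each gene start in NCBIM37. The study's designed reporter oligos show them, and are given here because they carry each site as a pair, with the core in capitals. AtEAM holds the E-box of Atoh1 and R21 the core of a Gfi1 site.
AtEAM: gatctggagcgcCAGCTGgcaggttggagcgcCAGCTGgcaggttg
R21: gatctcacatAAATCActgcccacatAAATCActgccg

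Windows were found for 14635 of the 16837 genes tested (86.9%). CAGCTG, which reads the same on both strands, stood in 14.4% of all windows. It stood in 22.0% of those of added rises, 27.3% of strengthened rises and 23.3% of rises in iAtoh1 whose difference was not past the threshold, in 18.3% of weakened rises, in 14.9% of added falls, in 12.3% of weakened falls and in 12.2% of falls in iAtoh1 whose difference was not past it. AAATCA on either strand stood in 11.1% of all windows, in 16.9% of those of added falls, in 16.9% of weakened rises and in 14.5% of the falls whose difference was not past the threshold, against 8.79% of added rises, 9.09% of strengthened rises, 7.02% of weakened falls and 11.1% of the rises whose difference was not past it. The median GC content of the windows was 56.7% over all genes, 57.5% for added rises, 58.0% for weakened rises, 53.3% for added falls and 52.3% for the falls whose difference was not past the threshold, and the part of base composition in these shares was not tested. Looser spellings were searched as well, on both strands and overlapping those above. CANNTG stood in 66.9% of all windows, 71.5% of those of added rises, 65.9% of strengthened rises, 70.4% of weakened rises, 61.4% of weakened falls and 72.3% of the falls whose difference was not past the threshold. AATCANNGC stood in 3.43% of all windows, 6.97% of added falls, 4.23% of weakened rises and 2.57% of those other falls. For strengthened falls fewer than 80% of genes had a window (77.8%), so no share is given. The spellings shown were chosen after several had been seen, and a match is a description of letters, not of binding.

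The windows of 3 genes whose values stand above are shown because they hold a match, with every CAGCTG, and every AAATCA on either strand, in capitals. Acvr1c, an added rise, has CAGCTG at −254 and −221, counted from its start (chr2:58210307-58210606, minus strand), and Scx, also an added rise, has it at −273 (chr15:76287568-76287867, plus strand). The Scx window also holds AAATCA on the opposite strand, at −226, printed there as TGATTT. Kctd12b, an added fall, has AAATCA at −140 (chrX:150130935-150131234, minus strand).
Acvr1c: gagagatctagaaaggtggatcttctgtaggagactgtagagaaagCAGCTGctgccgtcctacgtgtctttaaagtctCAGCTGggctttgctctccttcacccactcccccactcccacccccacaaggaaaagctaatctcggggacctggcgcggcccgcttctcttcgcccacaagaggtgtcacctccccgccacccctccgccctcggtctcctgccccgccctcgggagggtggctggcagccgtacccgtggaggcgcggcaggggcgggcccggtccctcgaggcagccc
Scx: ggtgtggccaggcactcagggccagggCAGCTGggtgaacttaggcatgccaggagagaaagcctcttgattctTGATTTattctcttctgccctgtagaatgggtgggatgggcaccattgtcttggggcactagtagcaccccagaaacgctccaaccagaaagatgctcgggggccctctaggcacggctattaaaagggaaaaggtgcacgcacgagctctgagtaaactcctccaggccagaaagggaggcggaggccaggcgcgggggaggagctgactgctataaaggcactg
Kctd12b: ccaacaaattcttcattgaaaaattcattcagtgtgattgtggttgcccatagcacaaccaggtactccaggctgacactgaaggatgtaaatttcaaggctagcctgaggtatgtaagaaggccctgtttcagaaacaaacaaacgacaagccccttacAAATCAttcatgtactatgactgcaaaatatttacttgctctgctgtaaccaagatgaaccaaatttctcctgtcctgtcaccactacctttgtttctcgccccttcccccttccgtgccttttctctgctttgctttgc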

How the data were processed

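RNA-seq was done on whole EBs (No Dox) and sorted mVenus+ cells (Dox). The authors prepared poly(A) libraries, trimmed reads with cutadapt, quantified them with Kallisto against mouse transcripts of mm9, summed transcripts to genes with tximport and normalized with DESeq2. The deposited values are log2 of these normalized counts plus 1. Pseudoalignment shares reads among near-identical or overlapping transcripts, so such genes are uncertain. Here counts were recovered by inverting the logarithm, for levels only. Whole reads could not be recovered (77.0 to 78.2% of values up to 20 were whole multiples of 1 read's worth, tolerance 0.05), so no count model was run. Depth was estimated from those steps, and gives no interval.

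All 14 groups were fitted together in limma 3.58.1 (R 4.3.3) with a mean-variance trend and 14 residual degrees of freedom, so the groups share an estimate of spread. P-values were adjusted by Benjamini-Hochberg over the 16837 genes with at least 10 normalized counts in 2 or more of the 28 libraries. The scripts were tested on simulated data. Samples were grouped by their labels. Same-numbered replicates deviated together in every line (correlations of 0.10 to 0.25, just above the 0.1 set for pairing in iG+P), so fits with the replicate number as a block were treated as paired, and whether a number marks 1 clone is not stated.

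The named genes were Atoh1 and Gfi1, the 12 largest differences in each direction and the 5 largest per class. Genes the study names and members of 20 lists were named as well. The largest differences were taken among genes past the threshold with a group mean of at least 100. Switching between 0 and over 50 among untreated libraries was not allowed. The Dox effects of same-numbered replicates had to lie apart between the lines. The members and lists were chosen with earlier results of these data known. Coordinates and upstream windows come from NCBIM37 (GENCODE M1), the same assembly as mm9. Alternatives were other pseudocounts, filters, scalings and thresholds, no trend, only the 8 libraries, the block, and each library left out. Leaving out switching genes was added after seeing the data. Some items are not reported here.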

Additional observations from a re-analysis of the deposited data

Results flagged for a closer look

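For some genes the effect of adding Gfi1 differed with Pou4f3 present. Tested as the difference in iG+A and iAtoh1 less that in iGPA and iP+A, it was past the threshold upward for 60 genes (0.356% of those tested) and downward for 30 (0.178%). This comparison was chosen after seeing the data. The genes named here were picked for the largest values past the threshold, among those whose difference in iG+A and iAtoh1 was past it in the same direction. That difference enters the comparison, so the choice favours its direction and size.

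Among named genes, Tmem132e, a transmembrane protein, had a value of 7.58 (4.06 without and −3.52 with Pou4f3, SE 0.89, limma adjusted p = 0.000592). Pou4f1, a sensory neuron factor, had 5.39 (2.80 and −2.59, SE 1.01, limma adjusted p = 0.0199), and both iP+A Dox libraries, at 2346 and 1752 normalized counts, lay above those of iGPA, at 547 and 449. Onecut3, a neuronal homeobox gene, had 5.16 (3.08 and −2.08, SE 1.11, limma adjusted p = 0.0403), and Shox2 had 3.99 (4.68 and 0.69, SE 0.71, limma adjusted p = 0.0169).

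In the other direction, Mical2, an actin-regulating monooxygenase, had −5.47 (−2.04 and 3.43, SE 0.34, limma adjusted p = 6.77e-08), with 490 and 474 in iG+A and 957 and 1308 in iGPA with Dox. Gfra3 had −3.71 (−4.49 and −0.78, SE 0.81, limma adjusted p = 0.0413), Esx1, a placental homeobox gene, −3.57 (−2.93 and 0.64, SE 0.63, limma adjusted p = 0.0169) and Rnf150 −2.82 (−1.51 and 1.31, SE 0.63, limma adjusted p = 0.0438). Without iAtoh1 Dox replicate 2 the Onecut3 difference in iG+A and iAtoh1 was 2.35, and without iAtoh1 Dox replicate 1 that of Rnf150 was −1.22, neither past the threshold.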

How the results depend on the processing

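With 2 libraries a group, 1 library can decide a call. Of 105 named genes past the threshold, 63 kept their call under every alternative run and 33 lost it when 1 library was left out. With the 8 libraries fitted alone (4 residual degrees of freedom) 35 named calls were lost, and the counts were 469 higher and 249 lower, 54 weakened, 31 strengthened and 328 added rises, and 40 weakened and 133 added falls. With the replicate block the difference was higher for 829 and lower for 501 genes, of which 725 and 404 were shared with the fit without it. There were 23 strengthened falls and 264 genes below the sum of iAtoh1 and iGfi1, and among named genes it changed only the calls of Hmx3, Lhx3 and Otx1. With quantile normalization 273 genes were below the sum, and the difference was higher for 660 and lower for 535, a split moved from 747 and 410. With a log2 threshold of 1 there were 619 lower genes, 256 below the sum, 727 lower in iGPA minus iP+A, 1090 lower between sorted cells, 158 weakened, 79 strengthened rises, and 142 weakened, 20 strengthened and 346 added falls. With the untreated levels left out of the contrast, that is between sorted cells, 1095 genes were higher and 660 lower. With 1 library left out, the difference ranged from 588 to 751 higher and 336 to 493 lower, the genes above the sum from 160 to 455 and below it from 63 to 313, weakened falls from 42 to 99 (42 without iG+A Dox replicate 2 and 99 without iAtoh1 No Dox replicate 2), and strengthened falls from 4 to 23. Signs reversed for genes not past the threshold: Dcx (−0.03 with a pseudocount of 5, −0.34 to 0.78 with 1 library left out) and Myo6 (−0.25 to 0.44). The other 220 summary values stayed within 1.5 times of those reported. The causes of the other changes were not tested.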
